A study of Mus musculus with 17 samples.

Results

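In wild-type mouse testis, 371 of 37991 listed transcripts had many ribosome footprints for little mRNA. The transcripts were chosen by their wild-type values: 20 to 1000 CPM (counts scaled to the library total, as CPM is usually defined) of footprints in both wild-type libraries, and a mean footprint level at least 4 times the mean mRNA level, with 0.5 CPM added to each. Of the 18286 transcripts with a coding size, 5388 lay in that footprint range. The other 5017 of these, with a ratio under 4, are the comparison set below, called the low-ratio transcripts. Because wild-type footprints and wild-type mRNA chose the 371 transcripts, both levels and their ratio are given as a description with no test.

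The groups used here were testes of 129SvJae mice, either wild type or Mael-/-, with no age given in the labels. Footprints of 26 to 34 nt, mRNA and small RNA of 15 to 50 nt each had 2 libraries per genotype, marked a and b. RNA bound by an antibody to MAEL in wild type had 2 long-RNA libraries, and rabbit IgG had 1 as background. Whether a and b are different animals is not in the labels, and p-values here speak only to the spread of these libraries, which may be technical. The label Mael-/- names no allele, and the tissue label was not checked here, since the transcript IDs matched no gene symbol.

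Ribosome profiling digests the RNA that ribosomes do not cover and counts the protected fragments, so a transcript's footprints relative to its mRNA measure how densely ribosomes sit on it. Developing sperm cells make many mRNAs early, store them with proteins and translate them later, when transcription has stopped. MAEL is a germ cell protein of the piRNA pathway, in which small RNAs guide PIWI proteins to transposons and other transcripts, and it is needed to complete spermatogenesis.

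The identity of these transcripts can be given only by Ensembl ID and size: 0 of the IDs matched the reference tables, so no gene symbols, gene groups or sequences are given. Library totals were 6732376 to 15372210 counts for wild-type mRNA, 4130509 to 5746533 for Mael-/- mRNA, 3291588 to 5009051 for wild-type footprints and 1668197 to 2735792 for Mael-/- footprints. Small RNA libraries held 4832512 to 44418162 counts. Judged from their size column, the mRNA and footprint tables cover each transcript's coding codons less 20, and these counted codons are the coding size used here.

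The 371 transcripts took 5.51% ± 0.0249 (SD, n = 2) of all wild-type footprints and 0.914% ± 0.0715 (SD, n = 2) of all wild-type mRNA counts. Their wild-type mRNA level ran from 0 to 172.5 CPM with a median of 12.5 CPM, against a median of 72.6 CPM in the low-ratio transcripts. Per kilobase of coding sequence, the median wild-type mRNA level was 17.1 CPM against 57.1 CPM. Wild-type footprints, which the choice kept in one range for both sets, had medians of 77.7 and 65.5 CPM. Within that range the 2 sets differed more in mRNA than in footprints, as the choice requires.

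**Figure D1:**
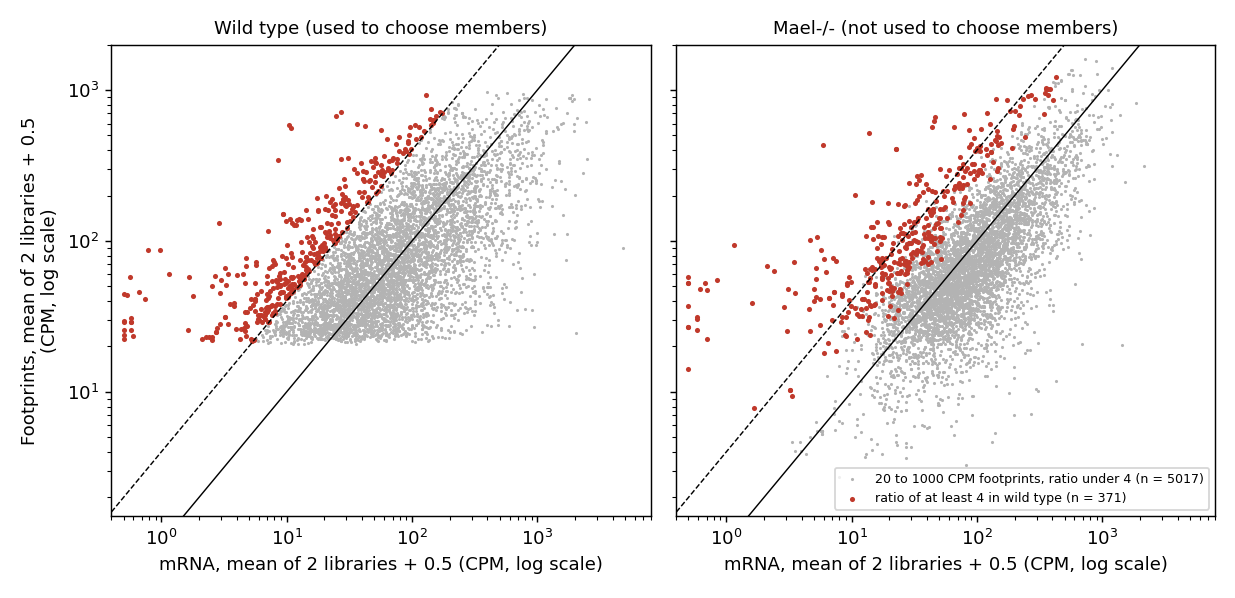
Footprints against mRNA, each as the mean of 2 libraries plus 0.5 CPM on log axes, in wild type (left) and Mael-/- (right); the solid line is a ratio of 1 and the dashed line a ratio of 4. The 371 chosen transcripts (red) lie on or above the dashed line in wild type by choice, and in Mael-/- 145 of them still do, against 9 of the 5017 low-ratio transcripts (grey).

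The wild-type ratio of the 371 transcripts ran from 4.01 to 111.01, with a median of 5.67. For 136 of them it lay between 4 and 5, for 141 between 5 and 8, for 66 between 8 and 20, and for 28 it was 20 or more. The ratio was at least 4 for 325 of the 371 with the a libraries alone, for 331 with the b libraries alone, and for 285 with both. At the edge of the choice, the 10 transcripts just inside had wild-type ratios of 4.01 to 4.06 and a median of 582.5 counted codons. The 10 just outside had ratios of 3.95 to 3.998 and a median of 287 counted codons.

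The transcripts with the most extreme ratios had almost no mRNA counts. ENSMUST00000021639, of 427 counted codons, had the highest wild-type ratio, with 95.2 and 78.7 CPM of footprints and 2 and 3 mRNA counts. ENSMUST00000062226, of 139 counted codons and with no untranslated part in its model, came next at 102.9. Its footprints stood at 59.7 and 55.6 CPM over 2 and 0 mRNA counts, so both ratios rest on a handful of mRNA reads. In all, 18 of the 371 had under 1 CPM of wild-type mRNA, 6 had no wild-type mRNA count and 3 had none in any of the 4 mRNA libraries.

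At the other end, 15 of the 371 had at least 100 CPM of wild-type mRNA. Their ratios rest on more counts, but in the 2 with the most mRNA the libraries a and b still differed. ENSMUST00000106443, of 314 counted codons, had the most, with 200.7 and 144.4 CPM of mRNA and 689.8 and 713.6 CPM of footprints in wild type. Its ratio was 4.06 in wild type and 2.84 in Mael-/-. In wild type it was 3.43 with the a libraries alone and 4.93 with the b libraries alone. ENSMUST00000010736, of 279 counted codons, had 129.5 and 202.3 CPM of mRNA and 755.8 and 675.4 CPM of footprints, and its ratio was 4.30 in wild type and 2.01 in Mael-/-. In wild type the a libraries alone gave 5.82 and the b libraries alone 3.33.

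The coding sizes of the chosen transcripts were shorter than those of the low-ratio transcripts, a property that the choice did not use directly. The median coding size of the 371 was 265 counted codons, with quartiles of 129 and 426.5 and a range of 6 to 2453. The low-ratio transcripts had a median of 434 counted codons, with quartiles of 240 and 714. All 18286 coding transcripts lay between, with a median of 305 and quartiles of 183 and 524. Of the 371, 63 (17.0%) had under 100 counted codons, against 213 (4.25%) of the low-ratio transcripts. Under 200 counted codons the shares were 39.6% and 19.7%. These sizes are not independent of counting, since the levels are not divided by length. Judged from the size column alone, both assays were counted over the same coding stretch. The mRNA kit had fragments of 120 to 200 bp, and the footprints were of 26 to 34 nt. Where mRNA reads were counted is not given, and the part of this difference in fragment size was not tested.

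The share of chosen transcripts fell with each step in coding size. Among transcripts in the footprint range it was 15 of 42 (35.7%) under 50 counted codons, 20.5% at 50 to 99 and 9.78% at 100 to 199. It was 8.47% at 200 to 399, 4.14% at 400 to 799 and 31 of 1073 (2.89%) at 800 or more. The same order held in the Mael-/- libraries, which did not take part in the choice. There the median ratio of the chosen transcripts went from 7.69 in the shortest class through 4.73, 3.64, 3.44 and 2.85 to 2.56 in the longest, and that of the low-ratio transcripts from 1.54 through 1.40, 1.04, 0.884 and 0.723 to 0.615. The slope with size was thus present in both sets, with means of 2 mRNA libraries that themselves differed with size, as given below.

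**Figure D2:**
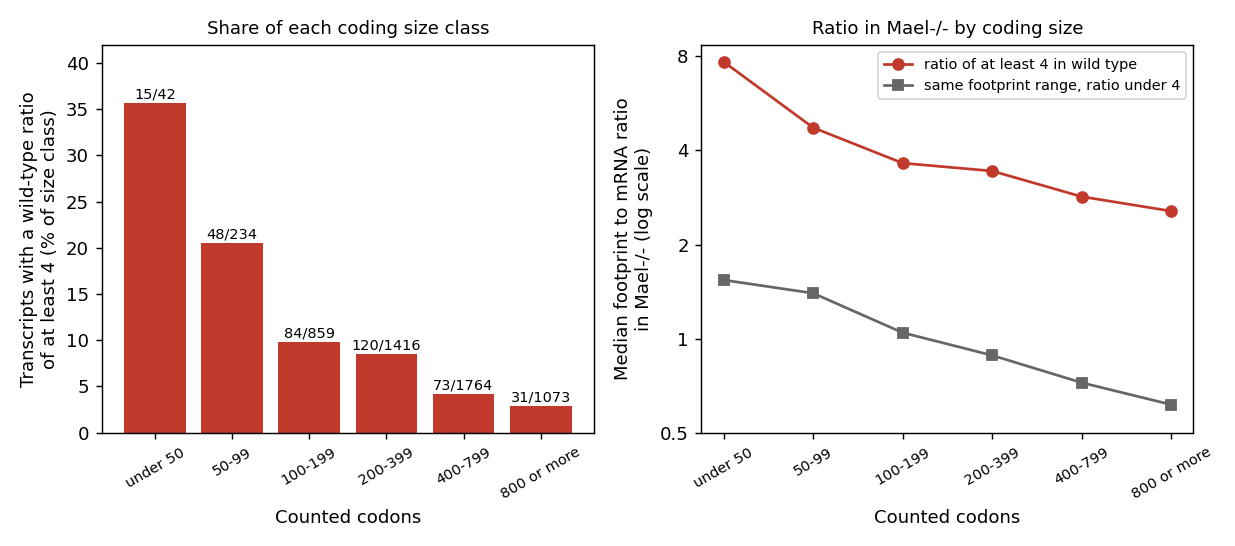
Left, the share of transcripts in the footprint range that had a wild-type ratio of at least 4, by class of counted codons, with the numbers above each bar. Right, the median footprint to mRNA ratio in Mael-/- on a log axis, by the same classes, for chosen (red circles) and low-ratio transcripts (grey squares); both lines go down from the shortest to the longest class.

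The mRNA libraries a and b differed with size, which touches the ratio. In Mael-/- mRNA of the low-ratio transcripts, the median log2 difference of library b over library a was -0.46 under 50 counted codons. It rose with each size class to 0.37 at 800 or more. In the 31 chosen transcripts of at least 800 counted codons, the median log2 difference of library b over library a was 0.36 in wild-type mRNA and 0.95 in Mael-/- mRNA, and it was -0.03 in footprints of both genotypes. In the low-ratio transcripts of that size it was 0.03 and 0.37 in mRNA. Of the 31 transcripts, 30 had a ratio of at least 4 with the wild-type a libraries and 20 with the b libraries. The 2 longest show it: ENSMUST00000099316, of 2453 counted codons, had 11.6 and 55.4 CPM of mRNA in wild type and 13.2 and 71.4 CPM in Mael-/-, so library b was high in both genotypes. ENSMUST00000062893, of 2452 counted codons, had 10.6 and 55.8 CPM in wild type and 12.9 and 63.7 CPM in Mael-/-. The part of this library difference in the choice of long transcripts, and in the slope of the ratio with size, was not tested.

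Many of the chosen transcripts had a model with no untranslated part, that is, one made of coding sequence alone within 1 nt. There were 58 of these among the 371 (15.6%), against 163 of 5017 low-ratio transcripts (3.25%) and 11.4% of all coding transcripts. The 58 were short, with a median of 141.5 counted codons against 290 for the other 313. In the Mael-/- libraries their median ratio was 5.68 and 44 of the 58 had a ratio of at least 4. The 313 with an untranslated part had a median of 3.29, and 101 of them reached 4.

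Some members could share reads with near-identical copies, and the sources used here do not give how such reads were counted. The 371 rows held 366 distinct sets of mRNA and footprint counts, and 10 rows shared their counts with another row. ENSMUST00000084013 and ENSMUST00000088336 are such a pair, and values for them are uncertain.

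In Mael-/- testis the footprint to mRNA ratio of the 371 transcripts was also high. These libraries were not used in the choice, and the ratio there ran from 1.43 to 115.22, with a median of 3.43 against 0.79 in the low-ratio transcripts. It was at least 4 for 145 of the 371 (39.1%), between 2 and 4 for 204 and under 2 for 22. No transcript of the 371 was under 1. Of the 5017 low-ratio transcripts, 9 (0.179%) reached 4. The 28 transcripts with wild-type ratios of 20 or more all stayed above 4, and their median was 47.8.

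Footprints were tested over mRNA within the 4 Mael-/- libraries by edgeR's quasi-likelihood test with TMM scaling, fitted over 10416 transcripts at a Benjamini-Hochberg adjusted p of 0.05. Of all tested transcripts 14.8% were called higher in footprints and 17.5% lower. Of the 370 chosen transcripts tested, 351 were called higher and 0 lower, with a median log2 difference of 2.10 against -0.10 over all tested. The filter on low counts took both assays together, so a transcript with almost no mRNA could pass through its footprints alone. All 18 with under 1 CPM of wild-type mRNA were tested and called higher here, while only 1 of them passed the filter in the mRNA test. Nothing is read from these 18 calls, which are counted among the 351 and in the median of 2.10. In all, 19 of the 371 did not pass the filter in the mRNA test, and nothing is read from their calls here. All chosen transcripts with at least 5 CPM of wild-type mRNA passed both filters. Called higher were 161 of 170 at 5 to 20 CPM, 112 of 119 at 20 to 100 CPM and 15 of 15 above that. An unadjusted p under 0.05 was found for 362 of the chosen transcripts higher and 0 lower, against 2091 and 2605 over all tested. DESeq2 called 362 of them higher and 0 lower, against 1462 and 1462 over all tested. With Mael-/- footprint library a or b left out, far fewer chosen transcripts were called, and far fewer over all tested too. The medians of the chosen transcripts were then 2.14 and 2.12, against -0.17 and -0.12 over all tested. All tested chosen transcripts lay above 0 in both fits.

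The transcripts with the largest difference in that test had no mRNA count in Mael-/-. They passed its filter on low counts through their footprints alone, so nothing is read from their calls or from the size of the difference. They are named as a description. Their ratios in the range given above depend on the 0.5 CPM added, so a bound with nothing added is given too, against a floor of 3 counts over the group. ENSMUST00000168605, of 66 counted codons, had 50.1 and 64.1 CPM of footprints there and 0 mRNA counts in both libraries, a ratio of 115.22 with 0.5 CPM added and at least 188.0 against the floor. ENSMUST00000086236, with 6 counted codons in a model of 78 nt, had 57.4 and 46.8 CPM of footprints in Mael-/- and 0 counts in all 4 mRNA libraries. Its ratio in Mael-/- was 105.14 with 0.5 CPM added and 171.4 against the floor. ENSMUST00000092552, also with 6 counted codons, had the same counts in the 4 Mael-/- libraries and tied with it, in a model of 200 nt of which 122 nt are untranslated. ENSMUST00000073238, in a model of 377 nt, had the same footprint counts in all 4 libraries and a lower ratio in Mael-/-, at 78.0 with 0.5 CPM added. Values for these 3 are therefore uncertain. The model of ENSMUST00000086236 is also shorter than the fragments of the mRNA kit given above. Whether its 0 counts mean absent mRNA was not tested, so its value against the floor is not a lower limit on ribosome density.

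Applied to the Mael-/- libraries, the same choice found 167 transcripts among 5421 in the footprint range. The 2 lists shared 141 transcripts, which is 38.0% of the wild-type list and 84.4% of the Mael-/- list. Of the 371, 18 fell outside the footprint range in Mael-/-.

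**Figure D3:**
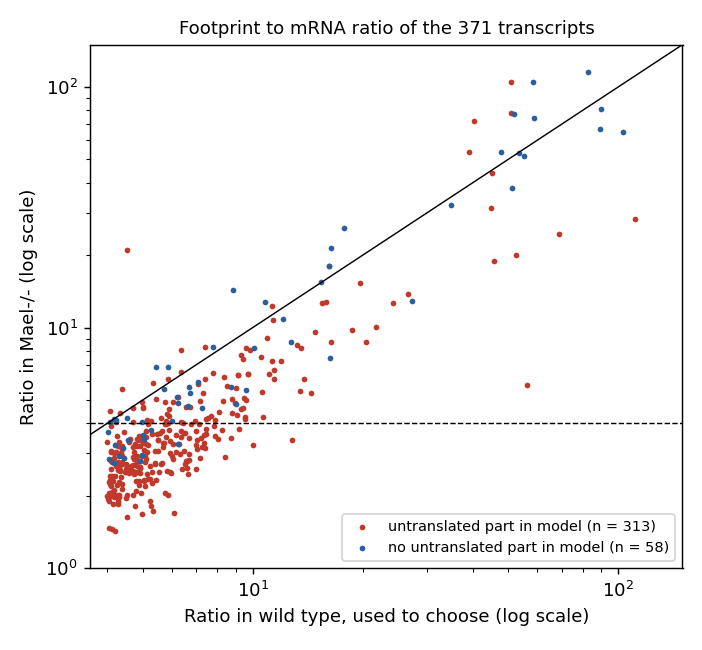
Footprint to mRNA ratio of each of the 371 transcripts in Mael-/- against wild type, on log axes, with 0.5 CPM added to each mean; the solid line marks equal ratios, the dashed line a ratio of 4, and blue points have no untranslated part in the model. Below the solid line lie 342 of the 371, and the 58 blue points had a median of 5.68 in Mael-/-.

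The ratio was lower in Mael-/- than in wild type for 342 of the 371 transcripts (92.2%), against 76.4% of the low-ratio transcripts. The wild-type libraries of this comparison are those that chose the transcripts for a high ratio, so this direction is a description and supports nothing. The change of the ratio between genotypes, tested as an assay by genotype interaction in 8 libraries by edgeR's quasi-likelihood test, was called for 0% of the 11427 transcripts tested. Among the 371 it was called for 0, with a smallest adjusted p of 0.602. An unadjusted p under 0.05 was found for 3 higher and 59 lower, against 424 higher and 491 lower over all tested. DESeq2 called 0 of the 371 higher and 1 lower, against 49 higher and 1 lower over all tested. The median log2 change was -0.55 among the 371 and -0.19 over all tested. With mRNA library a of Mael-/- left out, the median was -0.39 among the 371 and -0.09 over all tested.

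The mRNA of the chosen transcripts was higher in Mael-/- testis. The 371 took 1.92% ± 0.154 (SD, n = 2) of mRNA counts there, and their median level was 27.3 CPM against 12.5 CPM in wild type. The medians of the low-ratio transcripts were 84.8 and 72.6 CPM. In bulk tissue, fewer cells of a type and less RNA per cell cannot be told apart, and the wild-type mRNA that chose these transcripts for being low is the control here, so nothing is read from the direction.

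By edgeR's quasi-likelihood test over 11181 transcripts, 15.2% were called higher and 17.7% lower in Mael-/- mRNA. Of the 352 chosen transcripts that passed the filter on low counts, 124 rose and 7 fell, with a median log2 change of 0.96 against 0.21 over all tested. DESeq2 called 83 higher and 11 lower, against 865 higher and 2283 lower over all tested. Without wild-type library a no transcript was called, and 127 of the 354 chosen then tested had an unadjusted p under 0.05 and were higher, with 9 lower. Without wild-type library b none was called either, with 57 higher and 6 lower at an unadjusted p under 0.05. Without Mael-/- library b, 64 were called higher and 0 lower, with 12 lower at an unadjusted p under 0.05. The median stayed between 0.69 and 1.09 in the 4 fits that left out 1 library.

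By wild-type mRNA level, on which the choice rests, calls are given as a description. Called higher were 13 of 49 transcripts at 1 to 5 CPM, 61 of 170 at 5 to 20 CPM, 42 of 119 at 20 to 100 CPM and 7 of 15 at 100 CPM or more, with median log2 changes of 1.06, 0.98, 0.76 and 0.99 over those tested. Among transcripts with no untranslated part, 11 of 47 tested were called higher, with a median of 0.59, and among the others 113 of 305, with a median of 1.01.

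Among called transcripts whose mean level was 5 CPM or more and whose groups did not overlap, the 2 largest rises in mRNA came from transcripts with little mRNA in wild type. Wild-type mRNA took part in the choice, so the sizes of the named mRNA changes, here and below, are a description. ENSMUST00000057293, of 2016 counted codons, had 4.75 and 5.64 CPM in wild type and 16.4 and 36.1 CPM in Mael-/-. The groups did not overlap, and its log2 change was 2.06 ± 0.462 (SE; adjusted p 0.0330, edgeR quasi-likelihood), and without Mael-/- library b the change was 1.36 with an adjusted p of 0.0525. Its footprints, at 63.3 and 81.4 CPM in wild type and 98.0 and 83.9 CPM in Mael-/-, did not pass the test, at 0.24 with an adjusted p of 0.288 in edgeR's test. ENSMUST00000117507, of 540 counted codons, had 2.67 and 2.82 CPM of mRNA in wild type and 11.1 and 16.2 CPM in Mael-/-, a rise of 2.03 ± 0.366. Here footprints rose too, from 55.7 and 76.3 CPM to 152.4 and 92.9 CPM, by 0.82 with an adjusted p of 0.0133 in edgeR's test.

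Under the same limits, the 2 largest falls in mRNA were in short transcripts whose footprints fell by a similar amount. ENSMUST00000088740, of 136 counted codons, had 7.55 and 7.58 CPM of mRNA in wild type and 4.002 and 1.69 CPM in Mael-/-, a log2 change of -1.64 ± 0.452 (adjusted p 0.0406, edgeR). Its footprints went from 22.8 and 42.8 CPM to 9.87 and 7.79 CPM, a change of -1.95. ENSMUST00000126706, of 45 counted codons, had 8.91 and 10.2 CPM of mRNA in wild type and 3.83 and 4.36 CPM in Mael-/-, a change of -1.50 ± 0.337, and its footprints changed by -1.54. In both transcripts the groups did not overlap in either assay. These 2 calls were also lost in edgeR's test without Mael-/- library b, at adjusted p of 0.0966 and 0.0512, and the former with library totals, at 0.0528.

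Footprints of the chosen transcripts were called in both directions. The 371 took 6.89% ± 0.0873 (SD, n = 2) of Mael-/- footprints against 5.51% in wild type, and the median level was 98.1 CPM against 77.7 CPM. Of 9783 transcripts tested by edgeR's quasi-likelihood test, 11.3% were called higher and 20.3% lower. Of the 371, 122 rose and 47 fell, with a median log2 change of 0.27 against 0.06 over all tested, while 715 rose and 1488 fell among the low-ratio transcripts. DESeq2 called 68 of the 371 higher and 34 lower, against 372 higher and 1441 lower over all tested. Scaled by library totals alone, 172 of the 371 were called higher and 35 lower. The share of calls that were higher was thus 83.1% against 72.2% with TMM. Over all tested those shares were 49.8% and 35.7%. The wild-type footprints set both the range and the ratio of the choice, high against low mRNA, so nothing is read from these directions or from the size of the change beside that of mRNA.

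Both assays were called in the same direction for 83 transcripts that were higher (22.4%) and 7 that were lower (1.89%). Of the low-ratio transcripts, 9.57% were higher and 16.4% lower in both. Wild-type values of both assays took part in the choice, so nothing is read from these counts. Another 40 (10.8%, against 6.48% of the low-ratio transcripts) were called higher in mRNA and not called in footprints. With no call in mRNA, 35 (9.43%, against 4.66%) were higher and 38 (10.2%, against 13.3%) lower in footprints. Neither assay was called for 148 (39.9%, against 45.9% of the low-ratio transcripts). For 19 transcripts the mRNA was not tested, and 4 of these were called higher and 1 lower in footprints. One transcript was called higher in mRNA and lower in footprints. It was ENSMUST00000079464, of 429 counted codons, singled out after its values were seen. It had 12.8 and 7.13 CPM of mRNA in wild type and 36.2 and 31.7 CPM in Mael-/-, while its footprints stood at 537.6 and 638.3 CPM and then at 242.7 and 155.3 CPM. Its ratio was 56.2 in wild type and 5.79 in Mael-/-, and the change of the ratio did not pass edgeR's test, at an adjusted p of 0.602.

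**Figure D4:**
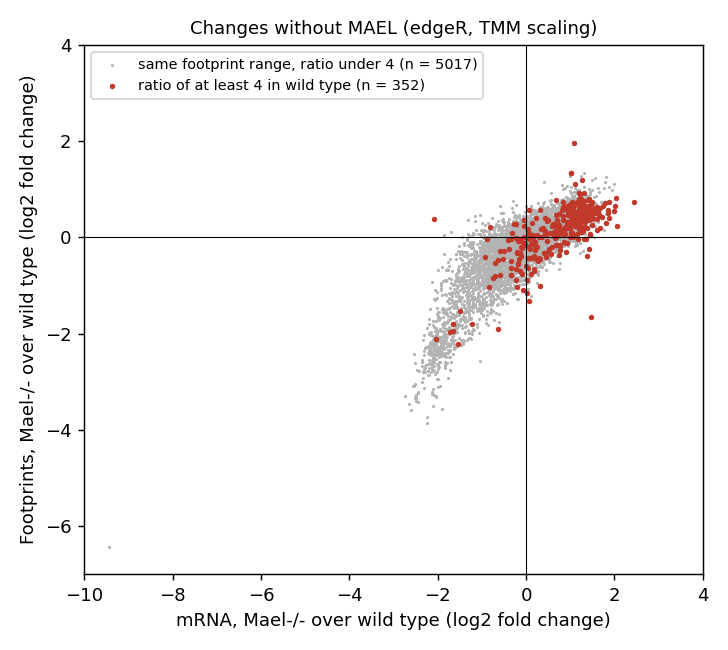
Log2 change of footprints against log2 change of mRNA, Mael-/- over wild type, with TMM scaling, for the 352 chosen transcripts tested in both (red) and the 5017 low-ratio transcripts (grey). The chosen transcripts had medians of 0.96 in mRNA over those 352 and 0.27 in footprints over all 371. Few lie in the lower left, where 7 (1.89%) were called lower in both assays, against 16.4% of the low-ratio transcripts.

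Under the same limits, the 2 largest rises in footprints were in short transcripts with no untranslated part. Wild-type footprints took part in the choice, so the sizes of the named footprint changes, here and below, are a description. ENSMUST00000082419, of 153 counted codons, had 119.6 and 197.2 CPM of footprints in wild type and 735.4 and 583.3 CPM in Mael-/-, a log2 change of 1.96 ± 0.202 (SE; adjusted p 2.98e-05, edgeR quasi-likelihood). Its mRNA rose by 1.10 with an adjusted p of 0.0413 in edgeR's test, and its ratio was 8.86 in wild type and 14.3 in Mael-/-, among the 29 transcripts with the higher ratio in Mael-/-. ENSMUST00000084013, of 79 counted codons and with a row of the same counts, had 98.0 and 202.6 CPM in wild type and 450.3 and 362.7 CPM in Mael-/-, a change of 1.34 ± 0.257 (adjusted p 0.00220, edgeR). DESeq2 did not call it, at an adjusted p of 0.0719.

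The 2 largest falls in footprints under the same limits were in transcripts of 427 and 528 counted codons. ENSMUST00000021639, which had the highest wild-type ratio, fell from 95.2 and 78.7 CPM of footprints to 18.3 and 8.99 CPM, a log2 change of -2.70 ± 0.237 (adjusted p 1.01e-05, edgeR). Those wild-type footprints also took part in its choice. ENSMUST00000094942, the longer of them, fell from 78.5 and 87.5 CPM to 24.5 and 12.0 CPM, a change of -2.21 ± 0.234 (adjusted p 3.43e-05, edgeR). Its mRNA, at 9.56 and 24.4 CPM in wild type and 6.09 and 7.99 CPM in Mael-/-, did not pass the test, at -1.54 with an adjusted p of 0.0617 in edgeR's test. The 2 longest transcripts also fell in footprints, ENSMUST00000099316 by 1.33 and ENSMUST00000062893 by 1.09 on the log2 scale, while their mRNA libraries overlapped between genotypes.

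**Figure D5:**
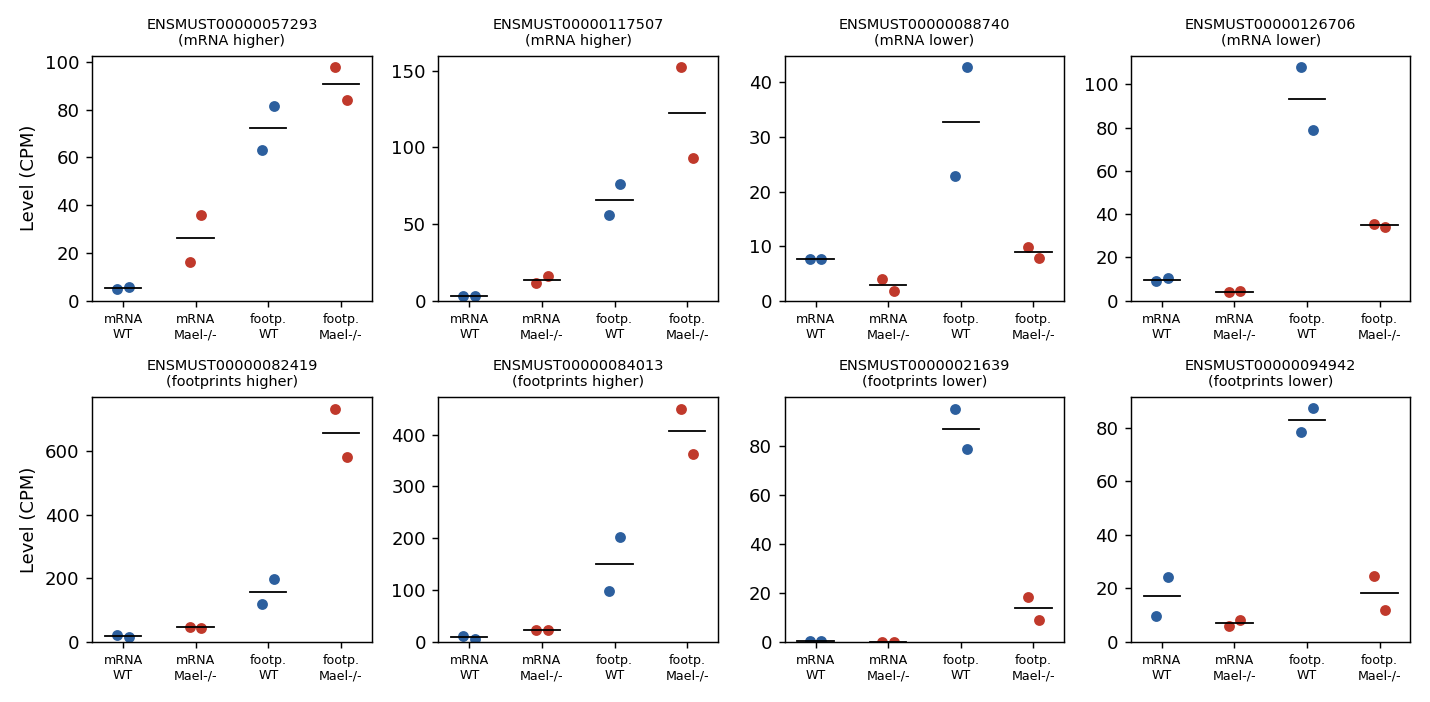
Levels in CPM of 8 transcripts with the largest changes, 1 point per library and a line at the mean of 2 libraries, for mRNA and footprints in wild type (blue) and Mael-/- (red); each panel has its own axis from 0. ENSMUST00000082419 reaches 735.4 CPM of footprints in Mael-/-, and ENSMUST00000021639 falls to 8.99 CPM.

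Small RNA counted on these transcripts was scarce. The 371 took 0.0861% ± 0.000583 (SD, n = 2) of the small RNA in wild-type libraries and 0.207% ± 0.0764 in Mael-/- ones, and 181 of them did not pass the filter on low counts. These libraries took no part in the choice. Of 9906 transcripts tested by edgeR's quasi-likelihood test, 3.85% were called higher and 3.54% lower in Mael-/-. Of the 190 chosen transcripts tested, 17 rose and 4 fell, with a median log2 change of 0.76 against 0.15 over all tested and 0.15 over the low-ratio transcripts. DESeq2 called 13 higher and 7 lower, against 417 higher and 608 lower over all tested. With scaling by library totals, 58 were called higher and 1 lower, against 2450 and 139 over all tested. The median of all tested transcripts then moved up by 1.27. Without wild-type library a, 1 was called higher and 1 lower, without wild-type library b 8 and 1, and without Mael-/- library b 29 and 8.

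Under the same limits, the largest rises in small RNA were on transcripts with long models. Log2 changes are on the TMM scale, which differs from the CPM values by the shift given above. ENSMUST00000048250, of 697 counted codons in 6364 nt, had 2.07 and 2.44 CPM of small RNA in wild type and 19.97 and 25.9 CPM in Mael-/-, a log2 change of 2.12 ± 0.4005 (adjusted p 0.0156, edgeR). ENSMUST00000053764, of 633 counted codons in 5552 nt, had 1.35 and 1.41 CPM in wild type and 10.8 and 17.4 CPM in Mael-/-, a change of 2.06 ± 0.425 (adjusted p 0.0210, edgeR). ENSMUST00000038169, of 96 counted codons, was the only transcript called lower that met the level and overlap limits for naming. It had 317.0 and 294.5 CPM in wild type and 168.3 and 160.8 CPM in Mael-/-, a change of -2.07 ± 0.513 (adjusted p 0.0387, edgeR). The call for it was lost with DESeq2's size factors in edgeR (adjusted p 0.0553) and with no filter on low counts (adjusted p 0.141), and with library totals its change was -0.89. Without wild-type library a or b all 3 calls were lost in edgeR's test, at adjusted p of 0.343 and 0.131 for ENSMUST00000048250, 0.292 and 0.150 for ENSMUST00000053764, and 0.566 and 0.221 for ENSMUST00000038169.

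In RNA bound with anti-MAEL, the share of chosen transcripts called above IgG was near that of all transcripts. They took 0.469% ± 0.122 (SD, n = 2) of the counts in the anti-MAEL libraries and 0.601% in the IgG library. Of 16214 transcripts tested by edgeR's quasi-likelihood test, with the 1 IgG library assumed to vary like the other 2, 1.3% were called higher with anti-MAEL and 0% lower. At an unadjusted p under 0.05, 1104 of all tested were higher and 139 lower, and DESeq2 called 347 higher and 0 lower. Of the 303 chosen transcripts tested, 3 (0.990%) were higher and 0 lower, with a median log2 difference of -0.14 against 0.02 over all tested. At an unadjusted p under 0.05, 9 were higher and 11 lower, and DESeq2 called 4 higher and 0 lower. By edgeR's test, 13 of the 4878 low-ratio transcripts tested (0.267%) were called higher and 0 lower. With 3 calls among the chosen transcripts, nothing is read from the distance between these shares.

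All 3 transcripts called with anti-MAEL lay far above IgG. ENSMUST00000107022, of 354 counted codons, had 164.8 and 102.6 CPM in the anti-MAEL libraries against 13.4 CPM for IgG, a log2 difference of 3.76 ± 0.590 (adjusted p 0.0164, edgeR). ENSMUST00000088248, of 160 counted codons, had 69.1 and 62.0 CPM against 9.63 CPM, a difference of 3.15 ± 0.422 (adjusted p 0.00874, edgeR). ENSMUST00000038169, which also fell in small RNA, had 68.9 and 53.5 CPM against 15.2 CPM, a difference of 2.42 ± 0.442 (adjusted p 0.0313, edgeR). With scaling by library totals no chosen transcript was called with anti-MAEL by edgeR, and adjusted p was 0.409 for ENSMUST00000107022 and 0.677 for ENSMUST00000088248. Small RNA on ENSMUST00000107022 was high in every library, at 98.8 and 95.9 CPM in wild type and 307.2 and 294.3 CPM in Mael-/-, and its change of 0.45 with TMM scaling did not pass edgeR's test at an adjusted p of 0.541.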

How the data were processed

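The authors deposited counts of reads per transcript, per the file values, and levels in CPM were computed from them by scaling to each file's total. Per the submitters' processing notes, CASAVA 1.8, Bowtie2 2.0.6, TopHat2 2.0.7 and build mm9 were used. The counting method and its use of strand are not given in the sources used here. Per the labels, the long-RNA kit does not mark strand.

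The size column of the deposited tables was read as counted codons: transcript length less 3 times that size was never under 59 nt and was 60 nt for 2023 transcripts. The tests used edgeR 4.0.16 under R 4.3.3 (TMM, filterByExpr, quasi-likelihood test, Benjamini-Hochberg adjustment) on all transcripts, with no replicate block, and with DESeq2 1.42.0 as an alternative. The scripts were tested on simulated data. Standard errors come from these fits.

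A chi-square comparison of the a and b libraries, made before they were averaged, ranged from 3.30 to 51.0 per degree of freedom, so no pair agreed within sampling noise. Transcripts were named for the 2 largest called changes in each direction (mean level 5 CPM or more, groups not overlapping), the 2 highest wild-type ratios, the 2 longest coding sizes and the 2 highest wild-type mRNA levels. The members, rules and lists were chosen with earlier results of these data known. Alternatives were other scalings, no filter, a replicate block, leaving out each library, ratio limits of 3 and 6, rows of equal counts taken once, and 0.1 or 1 CPM added. The size-selected anti-MAEL libraries, with 1 library each, were not used. No gene list or marker could be applied, since 0 transcript IDs matched a symbol.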

Additional observations from a re-analysis of the deposited data

How the results depend on the processing

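With 0.1 or 1 CPM added, the choice gave 385 or 355 transcripts. With a ratio of at least 3 or 6, calls for footprints over mRNA in Mael-/- were 540 and 161 higher. For mRNA they were 219 and 55 higher and 11 and 3 lower, and for footprints 214 and 59 higher and 78 and 20 lower. A ratio of at least 6 left 11 calls for small RNA and 0 for anti-MAEL. Limits of 3 and 6 also change how many transcripts are chosen. Counts at these limits are therefore not shares, and nothing is read from their size. DESeq2's size factors in edgeR gave 47 mRNA calls higher and 13 for small RNA. Library totals gave 189 higher and 4 lower for mRNA, 59 for small RNA and 0 for anti-MAEL. With no filter there were 11 lower for mRNA, 1 for the change of the ratio and 7 for anti-MAEL. DESeq2 gave 11 lower for mRNA, 68 higher for footprints and 1 for the change of the ratio. Scaling moved the median log2 change of all transcripts tested in mRNA by 0.28 with library totals and by -0.16 with size factors. Of all mRNA calls, 46.1% were higher with TMM, 69.1% with library totals and 27.4% with size factors. For footprints the shares were 35.7% with TMM, 49.8% with library totals and 20.5% with DESeq2. For footprints over mRNA in Mael-/- they were 45.8% with TMM and 27.5% with library totals, and for small RNA 52.0%, 94.6% and, with size factors, 39.4%.

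Leaving out 1 library gave 45 to 369 calls higher and 0 to 0 lower for footprints over mRNA in Mael-/-. It gave 0 to 100 higher and 0 to 13 lower for mRNA, 88 to 104 higher and 38 to 48 lower for footprints, 0 to 11 for the change of the ratio and 2 to 37 for small RNA. In these fits the lone library of a group is assumed to vary like the other group. For anti-MAEL this left no residual degrees of freedom and was not run. The cause of these differences was not tested.

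With the letter a or b as a replicate block, mRNA calls were 186 higher and 13 lower, footprint calls 103 higher and 40 lower, small RNA calls 70, ratio calls in Mael-/- 369 higher and 0 lower, and calls for the change of the ratio 0. Nothing in the labels says that the letters pair libraries. Deviations of same-lettered libraries correlated at 0.18 across transcripts for mRNA, -0.14 for footprints and 0.52 for small RNA. Over the named transcripts, 102 fits kept the call, 23 lost it and 0 reversed it. Nothing is read from the fits of ENSMUST00000168605 and ENSMUST00000086236 among these, since both had no mRNA count in Mael-/-. With 2 libraries per group and few mRNA counts, ratios of the 17 transcripts with under 10 wild-type mRNA counts are imprecise.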
